A study of Mus musculus with 3 samples.

Results

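Granulosa cells taken 12 h after hCG were compared with granulosa cells taken 4 h after hCG, gene by gene, on the deposited isoform levels. These are 2 of the 3 libraries of the series, with the third, taken before hCG (0 h), given only as a reference level. For each gene, levels are written in the order 0, 4 and 12 h. Isoform levels in FPKM (a level per kilobase of transcript, corrected for sequencing depth) were summed per gene, and the members are the 12545 protein-coding genes that reached 1 FPKM in at least 1 of the 2 libraries, out of 20491 protein-coding and 24217 genes of any kind in the table. Just inside that floor, with a higher value of 1 to 1.1 FPKM, lay 132 genes, and just outside, at 0.9 to 1 FPKM, 144. All 3 groups are wild-type C57BL/6 females of postnatal day 21 to 28 whose follicles had been grown with 4 IU of eCG. The 4 h and 12 h groups then received 5 IU of hCG, a hormone that acts on the luteinizing hormone receptor and sets off ovulation, whereas the 0 h group had not. Per the labels, cells came out of punctured follicles and RNA was isolated from 3 mice per time. Each time is 1 library. Whether RNA was pooled, or whether cumulus cells and oocytes were removed, the labels do not say. With 1 library per time there is no replicate, so no test was possible and every value below describes these libraries.

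The preovulatory surge of luteinizing hormone raises cyclic AMP in mural granulosa cells, which then release EGF-like ligands that spread the signal to the cumulus. A burst of immediate early genes, the progesterone receptor and prostaglandin synthesis follows, the cumulus builds a hyaluronan matrix, and the follicle wall is degraded. In the course of luteinization the granulosa cells stop making estrogen, leave the cell cycle and become progesterone-producing luteal cells. The labels describe the study as one of granulosa cells luteinizing during ovulation, and the comparison of 12 h with 4 h asks which transcripts of the early response were lower again at the later time and which were higher by then.

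On the deposited scale, differences of at least 2-fold toward lower levels at 12 h were more frequent and larger than those toward higher levels. Without that threshold the directions were about even, with 6340 positive and 6205 negative log2 folds. At 1.5-fold 1950 genes were higher and 1938 lower. At a threshold of 2-fold on the log2(FPKM + 1) scale, 526 genes (4.19% of those tested) were higher at 12 h and 926 (7.38%) were lower, around a median log2 fold of 0.01. At 4-fold the counts were 13 higher and 272 lower, at 8-fold 1 and 101, and at 16-fold 1 and 41. Genes called lower had a median of 22.96 FPKM at 4 h and 5.13 at 12 h, beside 4.65 at 0 h. Genes called higher had a median of 3.51 FPKM at 4 h and 9.70 at 12 h, beside 9.19 at 0 h. Both groups were selected on the 4 h value, so the 0 h medians, which share that library as their reference, are given side by side only. The scale matters for the balance of the 2 directions. On the deposited scale 36.2% of called genes were higher, and with median-of-ratios scaling 39.9% (589 higher, 888 lower). That share was 62.6% (1135 higher, 677 lower) with protein-coding FPKM brought to a common sum. It was 71.9% (1517 higher, 593 lower) with the FPKM of all genes brought to a common sum. The all-gene sum includes short RNAs. Between the 4 h and 12 h libraries, microRNA FPKM summed to 75472 and 43305, and snoRNA FPKM to 62341 and 36235. The part of these short RNAs in that scaling was not tested. Median-of-ratios scaling moved the median of all genes by 0.03, and the common sums moved it by 0.26 and 0.36. No gene was called in the opposite direction under any of them, but shifts of this size are too small to turn a 2-fold call around. All differences below are on the deposited scale. Counts of list members past 2-fold are to be read beside the shares of all tested genes, 4.19% higher and 7.38% lower.

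**Figure D1:**
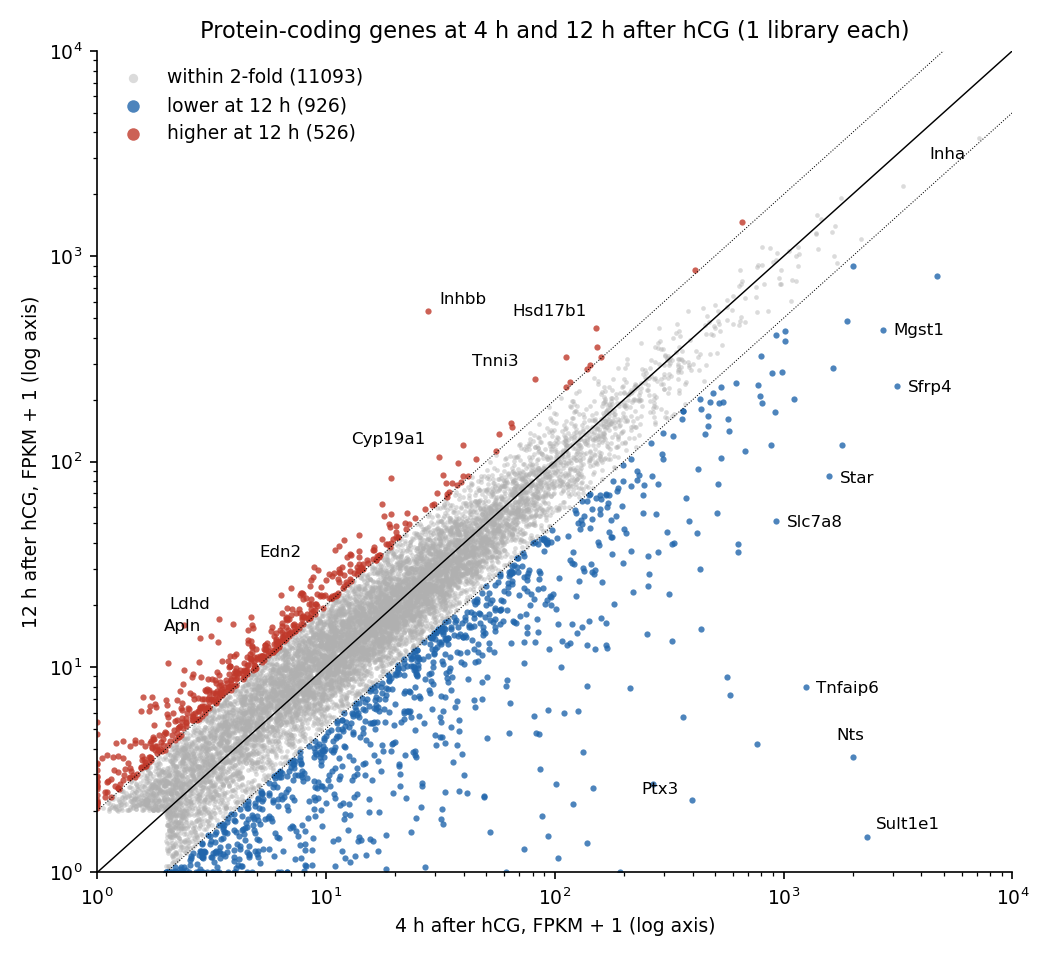
Level of each of the 12545 tested protein-coding genes at 4 h (horizontal) and 12 h (vertical), as FPKM + 1 on log axes, 1 library per time. Red points are the 526 genes at least 2-fold higher at 12 h and blue points the 926 at least 2-fold lower, the solid line marks equal levels and the dotted lines 2-fold, and the blue cloud reaches much farther from the line than the red one, in which Inhbb stands apart.

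The libraries were of similar depth. The spacing of low values corresponds to 11900000 fragments at 4 h and 11600000 at 12 h, and a single fragment adds 0.0420 and 0.0431 FPKM to a transcript of 2 kb. The summed FPKM of protein-coding genes was 468381 at 4 h and 385214 at 12 h, and the 25 most abundant genes held 11.6% and 8.58% of it. Of 12 granulosa markers, all 12 had at least 1 FPKM at 4 h or 12 h, the lowest being Fshr, described below. Some genes that every cell uses were listed near 0 (Gapdh at 0.909, 1.02 and 0.894 FPKM and Ppia at 1.13, 0.155 and 1.30), so a value of 0 in these files can be a failed estimate and no fold is given against one. Short transcripts tended to be higher and long ones lower at 12 h: the median log2 fold was 0.20 for genes whose main isoform is under 1000 nt and -0.12 for those of 5000 nt and over. Called genes followed the same order, with a median main-isoform length of 2054.5 nt for those higher and 3128 nt for those lower, and the part of transcript length in the calls was tested only by removing this trend. Over the 11978 genes with a length, 462 were then higher, 414 of them among the 526, and 893 lower, 834 of them among the 926. The intervals deposited with each level, which cover the estimate within a library and not the spread between mice, lay apart for 436 of the 526 higher genes, for 878 of the 925 lower genes that have them and for 28.7% of genes within 2-fold.

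The 25 genes lowest at 12 h against 4 h by fold, among those with at least 5 FPKM in one of the libraries, include secreted signals, enzymes, receptors, transporters and transcription factors. Besides the sulfotransferase Sult1e1, the neuropeptides Nts and Npy, the EGF-like ligands and the matrix proteins, the group holds several genes from outside the classical ovulatory set. Gcg, which encodes proglucagon, was listed at 0 at 0 h and 12 h and at 60.3 FPKM at 4 h (deposited interval 51.1 to 69.5). Adcyap1, the precursor of the peptide PACAP, had 0.0402, 92.7 and 0.5001 FPKM at 0, 4 and 12 h (log2 fold -5.97). Ch25h makes 25-hydroxycholesterol, an oxysterol that restrains sterol synthesis, and had 0.783, 72.6 and 0.298 FPKM (log2 fold -5.83). Enpp3, an ectonucleotidase, had 0.576, 87.2 and 0.890 FPKM (log2 fold -5.54). Npr1 is the receptor guanylyl cyclase for atrial natriuretic peptide and had 12.8, 435 and 14.4 FPKM (log2 fold -4.83). The choline transporter Slc5a7 was at 0.151, 51.2 and 0.571 FPKM (log2 fold -5.06). Msc, a basic helix-loop-helix repressor, was listed at 0 at 0 h, with 26.0 FPKM at 4 h and 0.0575 at 12 h. In these 7 genes the 12 h level was within 2 FPKM of the 0 h level, whereas Comp and Zpld1 were far below theirs. Comp, the cartilage oligomeric matrix protein, was at 125, 101 and 1.70 FPKM (log2 fold -5.23). Zpld1, which carries a zona pellucida-like domain, was at 24.7, 119 and 1.15 FPKM (log2 fold -5.81). Ptx3, Nmu, Ereg, Adcyap1, Snap25, Comp and Msc overlap another annotated gene, and the sources do not state strandedness, so reads of the partner cannot be told apart from theirs.

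Promoters of some of the genes with the largest differences are shown to make sequence elements visible, and each one printed holds a marked match. The windows are the 250 bases before the RefSeq start site in GRCm38.p6, written 5′ to 3′ on the gene's strand, with capitals marking matches to the full cyclic AMP response element TGACGTCA, the AP-1 site TGANTCA and the TATA box TATAAA, and in Inhbb also the GC box GGGCGG, each searched on both strands. Positions count from the start site, with negative values upstream. Areg and Ch25h carry the full cyclic AMP element, Nts and Tnfaip6 an AP-1 site, Gcg TATA boxes, and Inhbb, the gene with the largest difference upward, a GC box. The GC box is not particular to Inhbb here, since Areg holds one at -52 and Tnfaip6 one at -171, left in lower case.
Areg (chr5:91139349-91139598, plus strand): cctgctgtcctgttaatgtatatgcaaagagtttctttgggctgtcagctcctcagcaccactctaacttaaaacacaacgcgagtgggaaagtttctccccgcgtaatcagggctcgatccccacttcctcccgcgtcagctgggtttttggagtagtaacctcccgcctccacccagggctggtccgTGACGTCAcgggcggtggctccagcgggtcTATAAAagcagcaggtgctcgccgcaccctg
Ch25h (chr19:34475149-34475398, minus strand): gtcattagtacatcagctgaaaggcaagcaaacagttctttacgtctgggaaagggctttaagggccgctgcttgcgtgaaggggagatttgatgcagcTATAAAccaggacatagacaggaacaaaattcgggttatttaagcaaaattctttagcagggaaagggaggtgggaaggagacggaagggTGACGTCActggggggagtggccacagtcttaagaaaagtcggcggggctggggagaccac
Nts (chr10:102490419-102490668, minus strand): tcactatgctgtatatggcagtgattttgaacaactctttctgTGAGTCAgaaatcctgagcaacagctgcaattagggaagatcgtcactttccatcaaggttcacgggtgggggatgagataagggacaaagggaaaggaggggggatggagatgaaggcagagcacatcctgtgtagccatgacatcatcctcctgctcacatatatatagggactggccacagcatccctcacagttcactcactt
Tnfaip6 (chr2:52037863-52038112, plus strand): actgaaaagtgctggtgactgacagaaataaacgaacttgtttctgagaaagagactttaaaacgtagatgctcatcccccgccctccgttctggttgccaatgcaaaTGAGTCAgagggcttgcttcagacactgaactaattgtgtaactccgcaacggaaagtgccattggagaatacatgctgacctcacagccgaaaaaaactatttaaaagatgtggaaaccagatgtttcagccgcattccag
Gcg (chr2:62483654-62483903, minus strand): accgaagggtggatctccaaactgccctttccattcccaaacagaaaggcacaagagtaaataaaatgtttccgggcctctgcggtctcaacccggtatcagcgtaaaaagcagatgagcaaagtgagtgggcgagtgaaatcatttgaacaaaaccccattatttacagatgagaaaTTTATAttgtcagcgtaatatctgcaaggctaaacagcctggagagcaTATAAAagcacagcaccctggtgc
Inhbb (chr1:119422249-119422498, minus strand): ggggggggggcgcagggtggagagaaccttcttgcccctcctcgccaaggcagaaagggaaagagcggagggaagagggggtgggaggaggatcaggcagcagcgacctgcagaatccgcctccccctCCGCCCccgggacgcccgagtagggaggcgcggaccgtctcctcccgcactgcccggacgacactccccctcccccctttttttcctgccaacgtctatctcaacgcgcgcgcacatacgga
The cyclic AMP element begins at -61 in both Areg and Ch25h. The TATAAA letters begin at -31 in Areg, at -151 in Ch25h, and in Gcg at -24 and, on the other strand, at -72. In Inhbb the GC box begins at -122 and is read on the other strand. The AP-1 site begins at -207 in Nts and at -142 in Tnfaip6. A match is a stretch of letters and not evidence of binding.

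Over the 300-base windows of RefSeq promoters (250 before and 50 after the start), 19 of the 25 largest lower genes and 18 of the 25 largest higher genes had an entry. TATAAA stood in 7 of the 19 and 1 of the 18, in 12.8% of the 712 called lower and 8.86% of the 429 called higher, beside 7.13% of the 10087 tested genes and 13.1% of all 16405 promoters. In the 7 lower genes its distance from the start varied. It began at -212 in Pgr, -209 in Enpp3, -187 in Slc5a7, -151 in Ch25h, -86 in Epgn and -31 in Areg, and at -72 and -24 in Gcg. The AP-1 letters stood in 4 of the 19 and 1 of the 18, in 8.57% of lower and 5.59% of higher genes, beside 4.80% of tested genes and 7.17% of all promoters. The full cyclic AMP element stood in 2 of the 19 and 0 of the 18, in 27 of the 712 lower genes (3.79%) and 5 of the 429 higher genes (1.17%), beside 3.27% of tested genes and 2.44% of all. GGGCGG went the other way among the extremes, with 7 of the 19 and 13 of the 18, in 63.5% of lower and 54.8% of higher genes, beside 64.9% of tested genes and 48.5% of all promoters. The windows also differ in base composition, whose part in these shares was not tested, with a median G and C content of 47.3% in the 19 lower, 58.2% in the 18 higher and 61.0% in tested genes. The other letters searched were spread as follows. TGACG, the shorter cyclic AMP element, which also lies within the full one, stood in 30.2% of lower and 25.6% of higher genes, beside 31.6% of tested genes and 24.8% of all promoters. The E-box CACGTG stood in 9.13% of lower and 9.56% of higher genes, beside 10.35% and 8.28%. CCAAT stood in 36.7% of lower and 42.9% of higher genes, beside 38.9% and 39.3%. The NR5A site CAAGGTCA stood in 0.983% of lower and 1.17% of higher genes, beside 0.962% and 1.19%. The EGR site GCGTGGGCG stood in 11 of the 712 lower and 9 of the 429 higher genes, beside 1.21% and 0.878%. The progesterone response element was matched in 2 of the 712 lower and 3 of the 429 higher promoters, beside 0.337% of tested genes and 0.451% of all.

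Among the 25 largest higher genes, Inhbb stood apart. Inhbb encodes the beta B subunit of inhibin and activin and had 1354, 27.0 and 542 FPKM at 0, 4 and 12 h (log2 fold 4.28). No other gene was more than 8-fold higher, and the levels of most of the rest were low at 4 h. Capn5, a calcium-dependent protease of the calpain family, had 19.1, 1.81 and 12.9 FPKM (log2 fold 2.31). Ccn5, a matricellular protein, had 0.857, 0.585 and 6.17 FPKM (log2 fold 2.18). Dmac2l, a mitochondrial protein, was at 12.8, 2.94 and 15.2 FPKM (log2 fold 2.04). Apln encodes apelin, a ligand active on vessels, and was at 1.48, 2.39 and 12.3 FPKM (log2 fold 1.97). Edn2, the contractile peptide endothelin 2, was at 1.08, 7.83 and 29.6 FPKM (log2 fold 1.79). Kcne2, an accessory subunit of potassium channels, was at 19.5, 0.731 and 6.17 FPKM (log2 fold 2.05). Fndc5, the precursor of irisin, was at 11.6, 1.62 and 8.23 FPKM (log2 fold 1.82). Stac3 belongs to the excitation-contraction machinery of muscle and had 4.35, 0.787 and 5.63 FPKM (log2 fold 1.89). Pdlim4, an actin-associated PDZ and LIM protein, had 59.1, 16.6 and 61.2 FPKM (log2 fold 1.82). Xpnpep2, a membrane aminopeptidase, was one of the few of this group low at 0 h, with 0.251, 0.686 and 5.13 FPKM (log2 fold 1.86). Several of these were below 1 FPKM at 4 h, and the deposited intervals of Rpl38 (0.474 to 4.27 FPKM at 4 h, 0.239 to 20.2 at 12 h) and Triqk (0.461 to 2.41 and 2.09 to 17.7) overlap. Ldhd, Capn5, 1700007K13Rik and Edn2 overlap another annotated gene. Omt2b, an oocyte transcript, was at 14.5, 5.36 and 21.5 FPKM (log2 fold 1.82), beside the other oocyte genes described below.

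**Figure D2:**
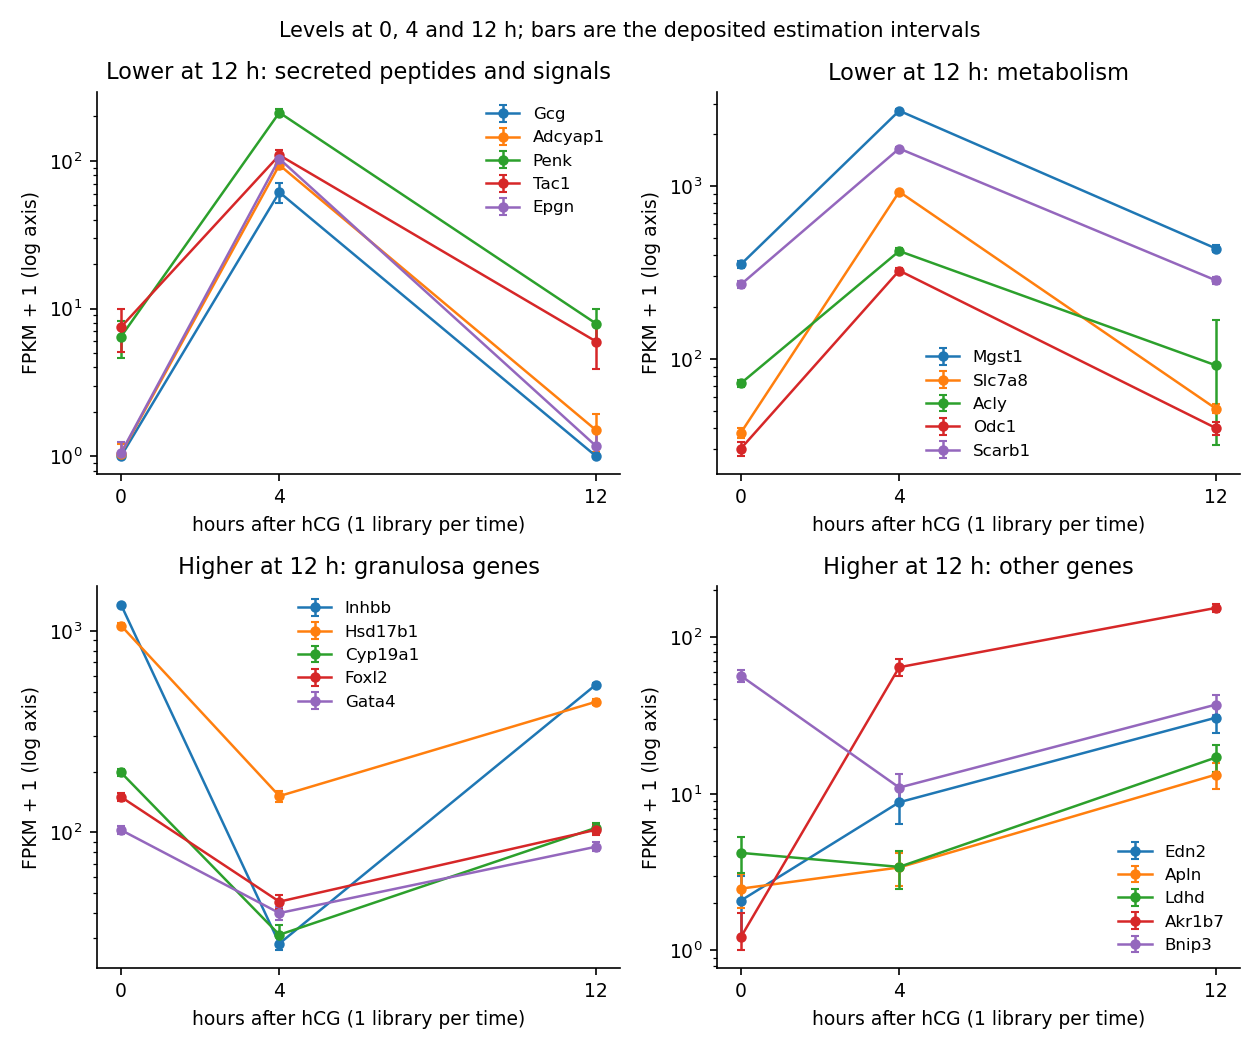
Levels of 20 genes in the 0, 4 and 12 h libraries as FPKM + 1 on log axes, 1 library per time, with bars for the deposited estimation intervals. The upper panels show genes lower at 12 h than at 4 h, such as Slc7a8 (926 against 50.4 FPKM), and the lower panels genes higher at 12 h, such as Inhbb (27.0 against 542 FPKM), in which Edn2, Apln and Akr1b7 were above their 0 h level and the granulosa genes were between their 4 h and 0 h levels.

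Signals that open the ovulatory response were lower at 12 h while the receptor gene Erbb2 and the protease Adam17 were within 2-fold. Of 12 measured EGF-like ligands and ERBB receptors 5 were lower, none higher, with a median log2 fold of -0.18 that turns to 0.08 and 0.18 with common protein-coding and all-gene sums. The 5 are ligands: beside Areg, Ereg, Btc and Epgn, the neuregulin Nrg1 had 0.477, 3.13 and 0.0894 FPKM at 0, 4 and 12 h (log2 fold -1.92). The receptor gene Erbb2 was at 13.5, 13.6 and 13.3 FPKM (log2 fold -0.03). The shedding protease Adam17 was at 43.5, 43.0 and 43.1 FPKM (log2 fold 0.00). Hbegf, the heparin-binding ligand, was at 16.3, 4.05 and 7.12 FPKM (log2 fold 0.68), and so did not pass 2-fold. Of 23 neuropeptides, granins and processing enzymes 15 were lower and 1, Edn2, higher (median -1.91). Penk, the enkephalin precursor, had 5.45, 211 and 6.91 FPKM (log2 fold -4.75). The processing enzyme Cpe, carboxypeptidase E, was at 886, 963 and 727 FPKM (log2 fold -0.40). The amidating enzyme Pam was at 24.3, 51.6 and 29.6 FPKM (log2 fold -0.78).

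Many intracellular relays and their brakes were lower as well. Among 27 immediate early genes 14 were lower and none higher (median -1.20). Egr3, a zinc finger factor, had 0.722, 85.3 and 2.202 FPKM at 0, 4 and 12 h (log2 fold -4.75), or -4.05 by its main isoform alone. Ier5 had 3.54, 37.2 and 3.87 FPKM (log2 fold -2.97). The AP-1 subunit Junb had 8.10, 95.5 and 20.9 FPKM (log2 fold -2.14). Its partner Fos was at 14.5, 28.5 and 24.0 FPKM (log2 fold -0.24). Myc, a growth regulator, was at 27.4, 47.8 and 57.6 FPKM (log2 fold 0.27). Of 20 MAP kinase phosphatases and Sprouty-type inhibitors 11 were lower and none higher (median -1.10). Spry2, an inhibitor of receptor tyrosine kinase signalling, had 11.2, 112 and 11.9 FPKM (log2 fold -3.14). Errfi1, which blocks ERBB receptors, had 12.5, 282 and 35.4 FPKM (log2 fold -2.96). Among 31 genes that limit cyclic AMP signalling 7 were lower and 1 was higher (median -0.42). The phosphodiesterase Pde4b was at 0.801, 21.3 and 1.31 FPKM (log2 fold -3.27). The cyclic AMP-responsive modulator Crem was at 6.74, 106 and 12.3 FPKM (log2 fold -3.01), or -5.78 by its main isoform alone. That isoform, NM_001110854, went from 80.3% of the Crem total in the 4 h library to 4.59% in the 12 h library. Another Crem isoform, NM_001110855, rose instead, from 0.0470 to 7.41 FPKM, so the value of -5.78 includes a shift in isoform share. The higher gene of this list, Rgs3, a regulator of G protein signalling, was at 26.1, 6.82 and 21.9 FPKM (log2 fold 1.55).

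Several transcription factors of luteinization were lower too. Of 18 measured genes of the progesterone receptor and its ovulatory targets 10 were lower and 1 higher (median -1.45). The chemokine receptor Cxcr4 had 2.37, 314 and 21.7 FPKM at 0, 4 and 12 h (log2 fold -3.79). The cyclic GMP-dependent kinase Prkg2 had 1.02, 47.3 and 6.03 FPKM (log2 fold -2.78). Adamts1, a versican-cleaving protease of this group, did not follow, with 28.5, 112 and 119.8 FPKM (log2 fold 0.10). Of 23 KLF, C/EBP and RUNX factors 8 were lower and none higher (median -0.69). Runx2, a runt-domain factor, was at 2.23, 72.6 and 12.2 FPKM (log2 fold -2.48). Cebpa, a leucine zipper factor, was at 42.9, 147 and 27.5 FPKM (log2 fold -2.38). Its relative Cebpb was at 50.4, 169.8 and 61.6 FPKM (log2 fold -1.45). Of 33 luteal genes 12 were lower and 1 higher (median -0.70). Sfrp4, a secreted WNT antagonist, was among the most abundant protein-coding transcripts at 4 h, with 119, 3129.6 and 233 FPKM (log2 fold -3.74). Igfbp3, which binds insulin-like growth factors, had 1.51, 11.1 and 0.920 FPKM (log2 fold -2.66). The cell cycle regulator Rgcc was at 34.0, 172 and 165 FPKM (log2 fold -0.06), close to its 4 h level. The prolactin receptor gene Prlr was at 27.3, 32.9 and 20.9 FPKM (log2 fold -0.63). Stat5a, which relays its signal, was at 21.9, 9.29 and 20.7 FPKM (log2 fold 1.08), or 0.99 by its main isoform alone. Akr1c18, which inactivates progesterone late in luteal life, was at 5.41, 16.2 and 19.2 FPKM (log2 fold 0.23).

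**Figure D3:**
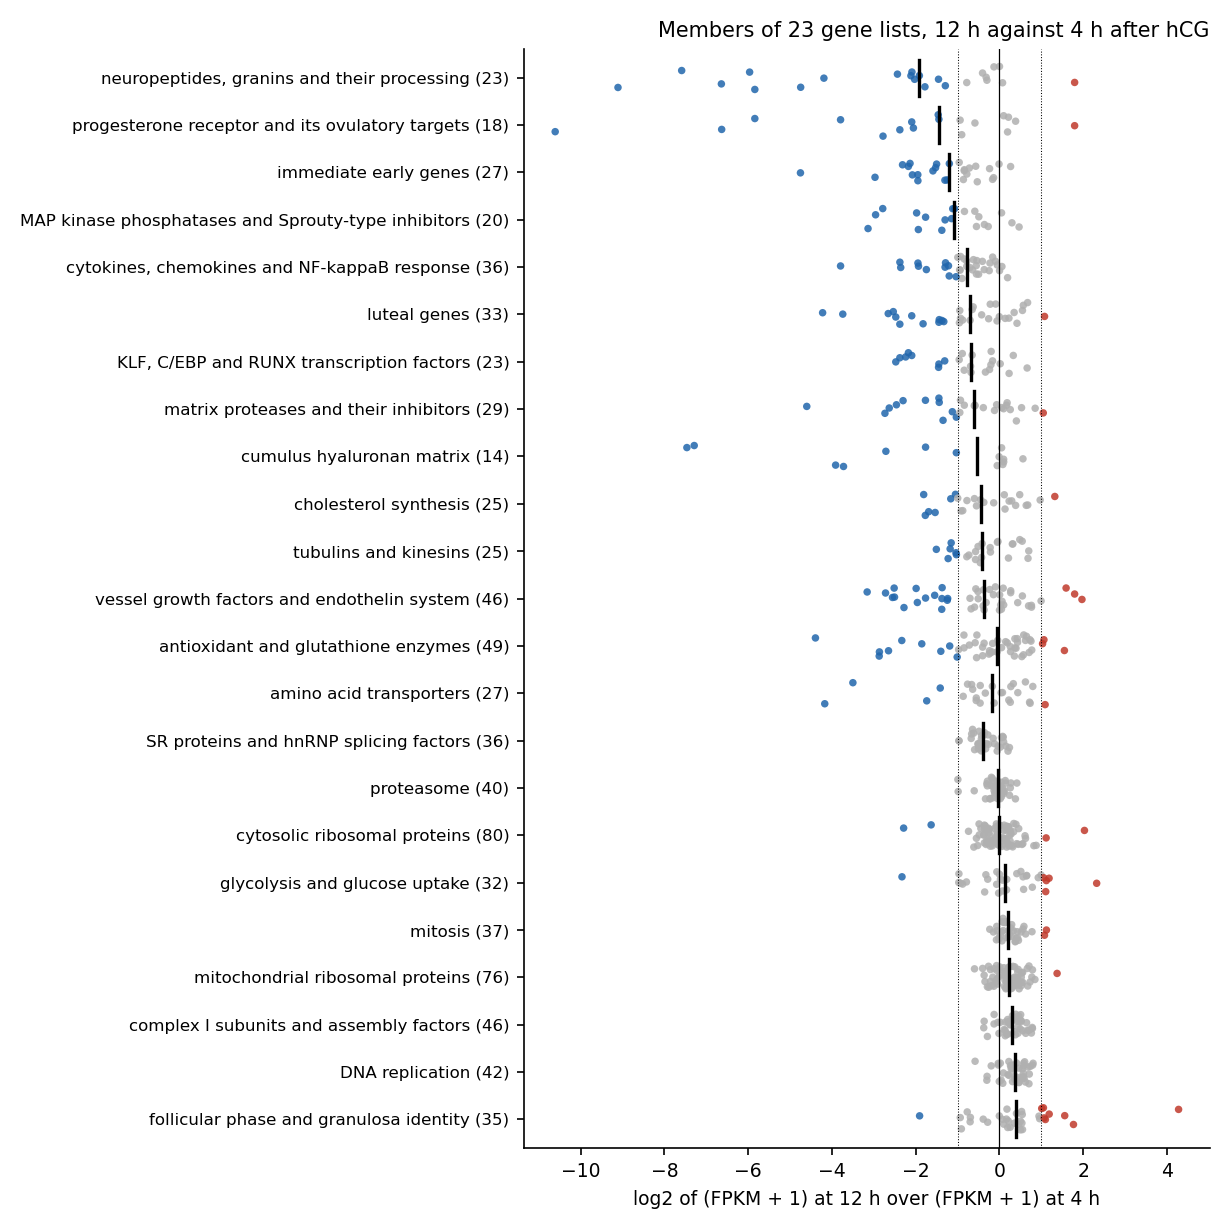
Log2 fold at 12 h over 4 h, on the FPKM + 1 scale, of each measured member of 23 gene lists, with the number of members in parentheses, 1 library per time. Blue points are at least 2-fold lower, red points at least 2-fold higher, black bars are list medians and dotted lines mark 2-fold, and the neuropeptide list (median -1.91) and the follicular list (median 0.40) lie at the 2 ends.

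Among genes of the matrix, proteases and hyaluronan genes had many lower members, and collagens and laminins had 1. Of 14 cumulus matrix genes 7 were lower and none higher (median -0.54). Vcan, the proteoglycan versican, had 111, 1806 and 119 FPKM at 0, 4 and 12 h (log2 fold -3.91). The hyaluronan synthase Has2 had 0.111, 15.9 and 0.277 FPKM (log2 fold -3.72). Hmmr, which encodes a hyaluronan-binding protein of the spindle, was at 11.4, 6.83 and 10.6 FPKM (log2 fold 0.56). Of 29 matrix proteases and inhibitors 11 were lower and 1 higher (median -0.60). The urokinase gene Plau had 78.7, 1105 and 199.9 FPKM (log2 fold -2.46). Its receptor Plaur had 3.97, 19.9 and 2.38 FPKM (log2 fold -2.63). Serpinb9, an inhibitor of granzyme B, had 7.82, 326 and 12.5 FPKM (log2 fold -4.60). The higher one was the stromelysin Mmp11, with 87.9, 111 and 229.5 FPKM (log2 fold 1.04), or 0.99 without the length trend. Of 18 serpins 7 were lower and none higher (median -0.84), and Serpina5, an inhibitor of protein C, was at 13.4, 7.12 and 0.0888 FPKM (log2 fold -2.90).

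Of the structural genes, 34 of 35 collagens, laminins and basement membrane genes stayed within 2-fold (median -0.11, and 0.13 and 0.24 with the common sums), the exception being nephronectin, Npnt, with 1.25, 3.74 and 0.893 FPKM at 0, 4 and 12 h (log2 fold -1.32). Of 16 integrins 4 were lower and none higher (median -0.17, and 0.04 and 0.14 with the common sums). The collagen-binding subunit gene Itga2 had 6.29, 115 and 12.0 FPKM (log2 fold -3.16). Itgb3, a subunit of the vitronectin receptor, had 8.69, 12.5 and 21.9 FPKM (log2 fold 0.76). Among 38 actin and contractile genes 6 were lower and 1 higher (median -0.30, and 0.09 with the common sum of all genes). Tagln2, a calponin-like actin binder, had 34.3, 679 and 111 FPKM (log2 fold -2.60). The adhesion protein vinculin, Vcl, had 42.5, 175 and 41.9 FPKM (log2 fold -2.04). Actb itself was at 1106, 1051 and 1058 FPKM (log2 fold 0.01). Of 25 tubulins and kinesins 6 were lower and none higher (median -0.43), led by Tuba1c with 10.5, 38.6 and 12.9 FPKM (log2 fold -1.51). The lower ones numbered 2 with the common protein-coding sum or a pseudocount of 5 FPKM, and 1, beside 2 higher, with the common sum of all genes.

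In the steroid pathways the difference depended on the enzyme. Of 17 genes of progesterone synthesis 4 were lower and 1 higher (median 0.10). Star, which carries cholesterol into mitochondria, had 14.3, 1583 and 83.8 FPKM at 0, 4 and 12 h (log2 fold -4.22), the largest difference of the list. Por, the electron donor of microsomal cytochrome P450 enzymes, had 37.9, 203 and 44.0 FPKM (log2 fold -2.18). Ferredoxin, Fdx1, the donor in mitochondria, had 182, 1890.2 and 485 FPKM (log2 fold -1.96). Cyp11a1, which cuts the cholesterol side chain, was at 557, 1713 and 930.0 FPKM (log2 fold -0.88), within 2-fold. Hsd3b1, the next enzyme toward progesterone, was within 2-fold too, at 3609, 1679 and 1402 FPKM (log2 fold -0.26), and its close copies make its level uncertain. The orphan receptor Nr5a1 was at 107, 64.0 and 68.7 FPKM (log2 fold 0.10). Srd5a1, a steroid 5-alpha-reductase, was at 8.404, 3.51 and 8.24 FPKM (log2 fold 1.04). Of 14 genes of estrogen synthesis, sulfation and reception 2 were higher and 3 lower (median 0.30), which turns to 4 higher and 2 lower, and to 6 and 2, with the common sums. The higher ones were aromatase, Cyp19a1, with 198, 30.0 and 104 FPKM (log2 fold 1.77), and Hsd17b1, which makes estradiol from estrone, with 1065, 151 and 445 FPKM (log2 fold 1.56). The estrogen receptor gene Esr2 was just inside the threshold at 102, 54.3 and 106 FPKM (log2 fold 0.96).

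Genes of cholesterol supply are given by route. Of 25 genes of cholesterol synthesis 6 were lower and 1 higher (median -0.45). Sc5d, a late-stage desaturase, had 56.7, 241 and 68.1 FPKM at 0, 4 and 12 h (log2 fold -1.81). Cyp51, the lanosterol demethylase, had 35.4, 195 and 59.7 FPKM (log2 fold -1.69). Mevalonate kinase, Mvk, was the higher one at 25.1, 11.7 and 30.8 FPKM (log2 fold 1.32). Of 31 genes of lipoprotein uptake and cholesterol storage 1 was lower and 1 higher (median 0.12). The lower one was Scarb1, the receptor for high-density lipoprotein, with 268, 1648 and 283 FPKM (log2 fold -2.54). Plin1, a lipid droplet coat protein, was the higher one at 2.17, 0.0514 and 2.60 FPKM (log2 fold 1.77). Of 42 genes of fatty acid synthesis and oxidation 8 were lower and 3 higher (median -0.12, and 0.14 and 0.24 with the common sums). Acsl4, which activates arachidonic acid, had 21.5, 307 and 44.4 FPKM (log2 fold -2.76), or -6.62 by its main isoform alone. That isoform, NM_019477, went from 86.0% of the Acsl4 total in the 4 h library to 3.82% in the 12 h library. Another Acsl4 isoform, NM_001033600, rose instead, from 17.4 to 38.9 FPKM, and held 87.6% of the later total. The value of -6.62 therefore includes a shift in isoform share. Acly, the source of cytosolic acetyl-CoA, had 71.1, 419.6 and 90.6 FPKM (log2 fold -2.198), with deposited intervals of 402 to 437 and 30.7 to 167 FPKM that show how loosely its 12 h level is set.

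Several genes that mark the granulosa cell of the growing follicle were higher at 12 h. Of 35 genes of the follicular phase 8 were higher and 1 lower (median 0.40). Foxl2, the forkhead factor that maintains granulosa identity, had 149, 44.3 and 102 FPKM at 0, 4 and 12 h (log2 fold 1.19). Gata4 had 102, 38.7 and 83.9 FPKM (log2 fold 1.095). Fshr, the receptor for follicle-stimulating hormone, was at 133, 15.5 and 32.1 FPKM (log2 fold 1.01), right at the threshold and inside it without the length trend (0.95). Grb14, an adaptor that restrains insulin receptor signalling, was at 373, 141 and 294 FPKM (log2 fold 1.05). Levels at 12 h of these genes were below those at 0 h, and for Fshr far below. The lower one was Inhba, the inhibin and activin beta A subunit, with 699, 784 and 208 FPKM (log2 fold -1.91), so the 2 beta subunits differed in opposite directions. The shared alpha subunit Inha, the most abundant protein-coding transcript, was at 6986, 7163 and 3742 FPKM (log2 fold -0.94). Lhcgr, the receptor that hCG binds, was at 90.1, 113 and 69.4 FPKM (log2 fold -0.70). Amh, anti-Mullerian hormone, was at 252, 351 and 406 FPKM (log2 fold 0.21). The gap junction gene Gja1 was at 3048, 1401 and 1585 FPKM (log2 fold 0.18).

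Local growth factor pathways held mostly lower members among those past 2-fold on the deposited scale. In TGF-beta superfamily signalling, with 43 genes measured, 5 (11.6%) were lower and 1 (2.33%) higher, beside 7.38% and 4.19% of all genes tested. The list median was -0.29, and 0.07 with the common sum of all genes. The balance of calls turns to 2 lower and 4 higher with the common protein-coding sum, and to 2 and 5 with that of all genes. Grem1, a secreted BMP antagonist, was at 78.0, 21.7 and 5.13 FPKM at 0, 4 and 12 h (log2 fold -1.89) and so lower at each later time. Bmp2 was at 16.9, 46.1 and 17.0 FPKM (log2 fold -1.39), while the BMP target Id3 was at 367, 246 and 258 FPKM (log2 fold 0.07). Of 36 WNT ligands, Frizzled receptors and antagonists 6 were lower and none higher (median -0.29, and 0.04 with the common sum of all genes). Fzd1, a receptor, had 2.92, 32.9 and 7.84 FPKM (log2 fold -1.94). The ligand Wnt11 had 0.178, 9.68 and 0.428 FPKM (log2 fold -2.90). Of 21 Notch pathway genes 4 were lower and none higher (median -0.18, and 0.09 and 0.20 with the common sums). The ligand Jag1 had 2.80, 34.9 and 2.44 FPKM (log2 fold -3.38). The receptor Notch2 had 8.54, 56.4 and 15.1 FPKM (log2 fold -1.83). The target Hey1 had 1.95, 23.6 and 2.66 FPKM (log2 fold -2.75). Of 18 genes of the insulin-like growth factor system 3 (16.7%) were lower and 1 (5.56%) higher (median -0.48), beside the same shares of all genes. Pappa, a protease that frees the growth factor from its binding proteins, had 0.941, 23.4 and 3.95 FPKM (log2 fold -2.30).

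Cytokine and chemokine genes past 2-fold were all lower, while related lists each held a higher member. Of 36 cytokine, chemokine and NF-kappaB response genes 11 were lower and none higher (median -0.78). The interleukin 1 receptor Il1r1 had 12.3, 74.7 and 13.6 FPKM at 0, 4 and 12 h (log2 fold -2.38). The TWEAK receptor Tnfrsf12a had 32.7, 531 and 103 FPKM (log2 fold -2.36). Tnfaip3, a brake on NF-kappaB, had 0.726, 4.96 and 0.561 FPKM (log2 fold -1.93). Of 35 interferon response genes 1 was lower and 1 higher (median 0.16), Oasl2 with 7.05, 12.4 and 5.39 FPKM (log2 fold -1.07), or -0.82 with the common protein-coding sum, and the immunoproteasome subunit Psmb9 with 11.5, 2.51 and 9.71 FPKM (log2 fold 1.61). Of 24 genes of the prostaglandin pathway 4 were lower and 1 higher (median 0.03, and -0.02 without the length trend). With the common sums the balance turns to 3 lower and 4 higher, and to 3 and 6. Pla2g4a, which frees arachidonic acid from membranes, had 28.3, 97.2 and 21.7 FPKM (log2 fold -2.11). The receptor gene Ptger4 had 0.539, 7.47 and 1.24 FPKM (log2 fold -1.92). The higher one, Akr1b7, an aldo-keto reductase, had 0.216, 63.2 and 153 FPKM (log2 fold 1.26) and was thus highest at 12 h. Of 24 complement and coagulation genes 6 were lower and 1 higher (median -0.09, and 0.17 and 0.28 with the common sums). F3, tissue factor, the starter of blood clotting, had 5.61, 633 and 38.7 FPKM (log2 fold -4.00). Procr, the receptor of protein C, an anticoagulant, had 4.21, 137 and 7.06 FPKM (log2 fold -4.10).

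Vessel-related genes held lower members next to 3 higher ones. Of 46 vessel growth factors, guidance and endothelin genes 15 were lower and 3 higher (median -0.37). Vegfa, the main growth factor for endothelium, had 59.3, 185 and 70.9 FPKM at 0, 4 and 12 h (log2 fold -1.37), or -0.98 with the common sum of all genes. Its relative Vegfc had 1.796, 12.3 and 1.34 FPKM (log2 fold -2.51). The ephrin ligand Efnb2 had 1.75, 36.3 and 3.17 FPKM (log2 fold -3.16). The Eph receptor Epha4 had 2.06, 23.5 and 2.72 FPKM (log2 fold -2.72). Sema3c, a secreted semaphorin, had 40.8, 126 and 25.1 FPKM (log2 fold -2.28). The higher ones were Edn2, Apln and Sema7a, a membrane-anchored semaphorin, with 174, 38.8 and 119 FPKM (log2 fold 1.59). Endothelial markers were lower as well: 6 of 13 measured were lower and none higher, and all 13 had a negative log2 fold (median -0.90). With a pseudocount of 5 FPKM 1 was lower. Vwf, also on the list, was below 1 FPKM at both times. The summed FPKM of the list was 77.3 at 4 h and 33.8 at 12 h, beside 39.7 at 0 h. Kdr, the receptor for Vegfa on endothelium, was at 1.54, 7.92 and 1.24 FPKM (log2 fold -1.99). Smooth muscle and pericyte markers did not follow. Of 9 measured none passed 2-fold and 5 had a positive log2 fold (median 0.09). Their summed FPKM was 143, 208 and 207 at 0, 4 and 12 h. In bulk RNA, fewer cells of a type and less RNA per cell cannot be told apart, and the part of endothelial RNA in the vessel list was not tested.

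Metabolic genes that supply amino acids and glucose included a few large differences. Of 27 amino acid transporters 4 were lower and 1 higher (median -0.17, and 0.11 and 0.21 with the common sums). Slc7a8, a carrier of neutral amino acids, had 36.3, 926 and 50.4 FPKM at 0, 4 and 12 h (log2 fold -4.17). Its heavy chain Slc3a2 had 109.5, 452 and 135 FPKM (log2 fold -1.74). Slc7a11, the cystine importer, had 1.09, 49.8 and 3.49 FPKM (log2 fold -3.50). In the wider family of 227 measured solute carriers 23 (10.1%) were lower and 10 (4.41%) higher, beside 7.38% and 4.19% of all genes tested. The family median was 0.04, and the balance turns to 14 lower and 23 higher, and to 13 and 31, with the common sums. The vitamin C carrier Slc23a2 had 15.2, 256 and 27.4 FPKM (log2 fold -3.18). The fatty acid carrier relative Slc27a3 had 16.9, 180.0 and 19.3 FPKM (log2 fold -3.16). The mitochondrial glutamate carrier Slc25a18 was at 9.06, 1.0004 and 5.90 FPKM (log2 fold 1.79). Of 36 genes of serine, one-carbon and amino acid metabolism 4 were lower and 2 higher (median 0.02, and -0.03 without the length trend), which turns to 3 lower and 5 higher with either common sum. Odc1, which starts polyamine synthesis, had 29.2, 323 and 38.7 FPKM (log2 fold -3.03). Sat1, which breaks polyamines down, had 11.3, 83.2 and 13.8 FPKM (log2 fold -2.51).

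Glycolysis and glucose uptake had 5 higher members and 1 lower of 32 (median 0.12). The lower one was the glucose transporter Slc2a1, with 25.1, 148 and 28.8 FPKM at 0, 4 and 12 h (log2 fold -2.33). Among the higher ones, Pfkm, a phosphofructokinase subunit, had 27.8, 8.10 and 18.8 FPKM (log2 fold 1.12). Pdk1, a kinase that shuts pyruvate dehydrogenase, had 14.0, 5.05 and 12.7 FPKM (log2 fold 1.18). Ldha, lactate dehydrogenase A, was at 280.1, 263 and 259 FPKM (log2 fold -0.02). Of 24 hypoxia response genes 4 were lower and 3 higher (median -0.14, and 0.13 and 0.23 with the common sums), and 1 was lower with either sum, beside 3 and 4 higher. Egln3, an oxygen-sensing hydroxylase, had 0.791, 34.0 and 6.71 FPKM (log2 fold -2.18), while Bnip3, a mitophagy receptor, had 55.6, 9.95 and 36.1 FPKM (log2 fold 1.76). All 28 genes of the tricarboxylic acid cycle and pentose phosphate path were within 2-fold (range -0.45 to 0.79).

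Protective enzymes differed in both directions. Of 49 antioxidant and glutathione genes 9 were lower and 3 higher (median -0.06, and 0.23 and 0.34 with the common sums). Mgst1, a microsomal glutathione transferase, was among the 10 most abundant protein-coding transcripts, with 351, 2728 and 434 FPKM at 0, 4 and 12 h (log2 fold -2.65). Gclc, the rate-limiting enzyme of glutathione synthesis, had 34.0, 177 and 34.4 FPKM (log2 fold -2.33). Srxn1, which reactivates peroxiredoxins, had 4.56, 118 and 15.3 FPKM (log2 fold -2.87). Gsta4, a cytosolic glutathione transferase, had 347, 876 and 119 FPKM (log2 fold -2.87). Gstm7, of another class of these enzymes, was at 42.1, 6.70 and 21.5 FPKM (log2 fold 1.55), and both families hold near-identical copies that can share reads. Ephx2, the soluble epoxide hydrolase, had the second highest level of any protein-coding gene at 4 h, with 472, 4699.6 and 795 FPKM (log2 fold -2.56), or -3.28 by its main isoform alone. Of 34 genes of the unfolded protein and integrated stress response 4 were lower and none higher (median -0.21, and 0.08 and 0.19 with the common sums). With either sum 1 was lower and 3 higher. Among the 4 was Atf4, a factor of the stress response, with 150.1, 357 and 160.5 FPKM (log2 fold -1.15), which came within 2-fold with the common sums (-0.87 and -0.76). All 40 proteasome genes were within 2-fold (median -0.05, and 0.23 and 0.34 with the common sums), as were 46 of 48 lysosome genes (median -0.05, and 0.23 and 0.32). Both other lysosome genes were lower, among them Ctsc, cathepsin C, at 20.5, 64.3 and 15.8 FPKM (log2 fold -1.96).

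Complex I, mitochondrial ribosomal, replication and mitosis genes had positive medians with few calls, which other mitochondrial lists did not all share. All 46 complex I genes were within 2-fold, 39 of them with a positive log2 fold (median 0.31), and of 76 mitochondrial ribosomal proteins 55 had a positive fold and 1 was called higher (median 0.23). That one, Mrpl14, had 92.4, 36.8 and 97.1 FPKM at 0, 4 and 12 h (log2 fold 1.37). Of 42 DNA replication genes none passed 2-fold and 35 had a positive fold (median 0.36). Pold2, a subunit of DNA polymerase delta, was at 42.6, 23.1 and 41.0 FPKM (log2 fold 0.80), whereas Pcna, the sliding clamp, was at 51.6, 81.2 and 53.9 FPKM (log2 fold -0.58). Of 37 mitosis genes 2 were higher, the cyclin gene Ccnb2 with 86.3, 26.0 and 57.6 FPKM (log2 fold 1.12) and the phosphatase gene Cdc25b with 12.2, 5.86 and 13.4 FPKM (log2 fold 1.07), and 30 had a positive fold (median 0.21). The medians of these 4 lists stayed positive under each setting run, and with the common sum of all genes 7 complex I, 8 mitochondrial ribosomal, 6 replication and 4 mitosis genes were higher. Of 57 genes of respiratory complexes II to V 3 were higher and none lower, with a median of 0.10 that becomes -0.06 without the length trend. All 23 mitochondrial import genes were within 2-fold and 14 had a negative fold (median -0.07, and 0.20 and 0.31 with the common sums). Of 30 G1 cyclins and CDK inhibitors 4 were lower and none higher (median -0.27, and 0.07 with the common sum of all genes). They were Btg1, an antiproliferative factor, with 14.1, 102 and 15.2 FPKM (log2 fold -2.67), Btg2, Btg3 and Cdkn1a, the CDK inhibitor p21, with 6.85, 58.6 and 15.8 FPKM (log2 fold -1.82).

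Splicing and chromatin genes held few members past 2-fold. All 36 SR and hnRNP splicing factors were within 2-fold with a median of -0.40, 8 of them positive, led by Mbnl1 with 30.5, 62.7 and 31.6 FPKM at 0, 4 and 12 h (log2 fold -0.97). Of 58 chromatin modifying enzymes 2 were lower, both histone demethylases. Kdm6b had 14.4, 31.5 and 13.4 FPKM (log2 fold -1.17). Kdm3a had 24.3, 53.6 and 24.1 FPKM (log2 fold -1.12). Both came within 2-fold with the common sums (Kdm6b -0.90 and -0.79, Kdm3a -0.85 and -0.74). Their list's median of -0.20 becomes 0.06 and 0.17 with the common sums. Of 20 clock genes 3 (15%) were lower and 2 (10%) higher (median 0.39), beside 7.38% and 4.19% of all genes tested. The balance turns with the common sums, to 3 lower and 5 higher, and to 2 lower and 6 higher. The labels used here do not give the hour of day of each collection. Per1, a repressor in the clock loop, had 8.18, 37.3 and 10.7 FPKM (log2 fold -1.71). Nfil3, a leucine zipper repressor, had 11.1, 72.6 and 23.2 FPKM (log2 fold -1.60). Ciart, another clock repressor, was at 13.9, 1.196 and 4.47 FPKM (log2 fold 1.32). Channels of potassium, sodium and calcium had 4 higher and 4 lower of 34 measured (median 0.16), with the calcium channel subunit Cacna1a at 8.65, 0.773 and 4.205 FPKM (log2 fold 1.55). The potassium channel Kcnj8 was at 0.565, 8.18 and 1.30 FPKM (log2 fold -1.998). Of 38 orphan and adhesion G protein-coupled receptors 6 were lower and 1 higher (median -0.14, and 0.05 and 0.11 with the common sums), and Adgrf5, an adhesion receptor, had 13.4, 219 and 22.1 FPKM (log2 fold -3.25).

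Markers of other cells in the follicle were present and differed between the libraries too. All 16 measured oocyte markers had a positive log2 fold, 3 of them past 2-fold (median 0.84). With the common sums 12 and 14 passed 2-fold, and none with a pseudocount of 5 FPKM. Their summed FPKM was 266 at 4 h and 481 at 12 h, beside 344 at 0 h. The kinase gene Mos was at 5.12, 3.02 and 8.92 FPKM at 0, 4 and 12 h (log2 fold 1.30). Bmp15, an oocyte growth factor, was at 22.4, 14.9 and 28.6 FPKM (log2 fold 0.90). The part of oocyte RNA in the genes called higher was not tested, and Omt2b among the 25 largest is an oocyte transcript. Of 16 theca and stroma markers 1 was lower (median -0.12, and 0.14 and 0.24 with the common sums), and the theca enzyme Cyp17a1 was at 93.6, 114 and 59.0 FPKM (log2 fold -0.94). None of the 13 measured leukocyte markers passed 2-fold (median -0.18, and 0.06 and 0.16 with the common sums), with Adgre1, the macrophage antigen F4/80, at 1.45, 3.02 and 1.69 FPKM (log2 fold -0.58). Of 5 neutrophil markers S100a8 had 1.59, 10.2 and 0.463 FPKM (log2 fold -2.94) and S100a9, listed at 0 at 0 h, 10.8 and 0.266 FPKM at 4 and 12 h, while the other 9 of the 14 listed were below 1 FPKM at both times, Ngp and Elane at 0 in all 3 libraries. Of 6 erythroid markers 2 were lower, and the globin gene Hbb-b1, whose copies are near-identical, was at 1199, 647 and 734 FPKM (log2 fold 0.18). Surface epithelium markers had 1 of 10 lower (median -0.65), the keratin Krt7 with 4.28, 14.7 and 6.78 FPKM (log2 fold -1.01), and none with median-of-ratios scaling, the common sums or the length trend removed. Of 20 housekeeping genes 1, Ywhaz, was lower, with 81.1, 231 and 84.9 FPKM (log2 fold -1.43), and the median was -0.16, which becomes 0.11 and 0.21 with the common sums.

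**Figure D4:**
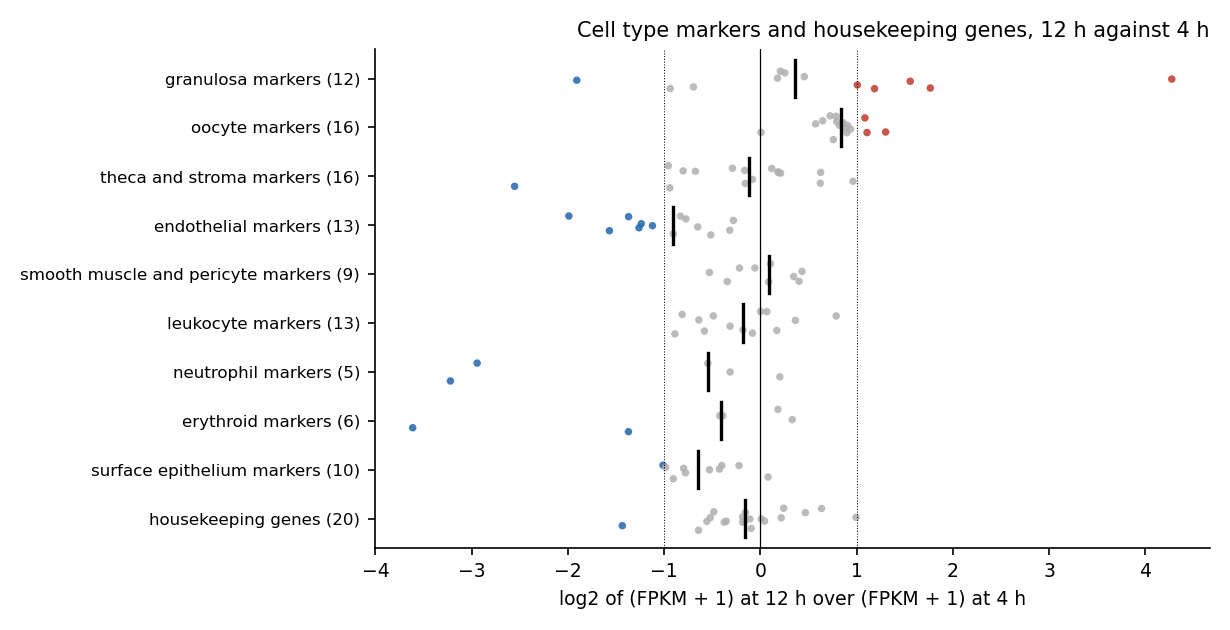
Log2 fold at 12 h over 4 h, on the FPKM + 1 scale, of measured cell type markers and housekeeping genes, with the number of genes in parentheses, 1 library per time. Colours, bars and dotted lines are as in the plot of gene lists, all 16 oocyte markers lie at or right of 0 (median 0.84) and all 13 endothelial markers left of it (median -0.90).

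Isoform use differed in a minority of well-expressed genes. Of 2018 genes with several isoforms and at least 10 FPKM in both libraries, 131 had an isoform whose share of its gene moved by at least 50 percentage points. In Pdpn, which encodes podoplanin, isoform NM_010329 made up 99.95% of the gene at 4 h, 0.00656% at 12 h and 0.00809% at 0 h, with NM_001290822 holding the rest. In Atxn7l3, a subunit of a histone deubiquitinating module, NM_001098837 made up 0.0367% at 4 h, 99.98% at 12 h and 56.5% at 0 h. Shares this close to 0 and 100% are estimates of how fragments divide between isoforms that share sequence, and no interval for a share can be had from the files.

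**Figure D5:**
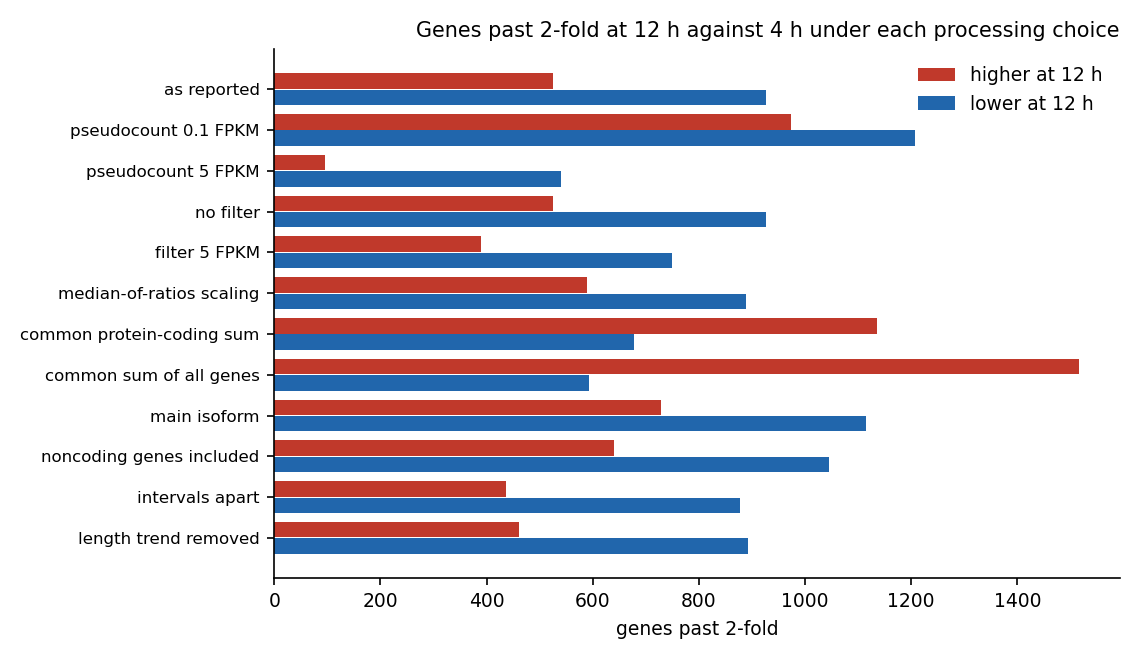
Number of genes at least 2-fold higher (red) or lower (blue) at 12 h than at 4 h under each processing choice, 1 library per time. Lower genes outnumber higher ones as reported (926 against 526) and under most choices. The order turns with the common protein-coding sum (677 against 1135) and with the common sum of all genes (593 against 1517).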

How the data were processed

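RNA was measured in 3 libraries of granulosa cells, 1 per time. The authors deposited FPKM per RefSeq isoform with a standard deviation and bounds, per the file headers. The submitters' processing notes name the mm10 build, TopHat2 2.1.1, Cufflinks 2.2.1 and CASAVA 1.8 without their role. Neither the labels nor the headers state strandedness. Of 34535 isoforms 34165 were matched to symbols through RefSeq, 174 through GENCODE and 196 not at all; 12 failed estimates have no interval. FPKM were summed per gene and compared as log2(FPKM + 1) with a floor of 1 FPKM in 1 library and a threshold of 2-fold, which understates differences of low genes. Gene intervals combine the distances of the deposited bounds from the level, nominally 2 deposited standard deviations, as the root of summed squares. This was done separately below and above, with the lower bound cut at 0, so intervals need not be symmetric. The spacing of low levels gave the depth: 70.3% of them at 4 h and 71.6% at 12 h were within 0.1 of whole fragments. No test, p-value or standard error was computed. Promoter windows are RefSeq's of GRCm38.p6, matched by symbol for 16405 genes and scanned for 10 motifs.

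Genes named are the 25 largest in each direction with at least 5 FPKM, up to 6 of the largest and 2 of the smallest folds per list, the 10 most abundant, the 5 largest isoform differences and 20 chosen ones, of which the text describes those that show each group. The members, the 57 lists and 15 name families were chosen with earlier results of these data known. The calling of genes was tested on simulated libraries with counting noise alone and true changes of 4-fold and 8-fold. That does not cover changes near 2-fold or the spread between mice. Python 3.11.15, pandas 2.3.3 and numpy 2.4.6 were used.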

Additional observations from a re-analysis of the deposited data

How the results depend on the processing

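No paired analysis was possible because each time is 1 library, and for the same reason no replicate could be left out. The counts of genes past 2-fold, 526 higher and 926 lower, became 973 higher with a pseudocount of 0.1 FPKM and 96 higher and 540 lower with one of 5 FPKM. With protein-coding FPKM brought to a common sum 1135 were higher, and with the FPKM of all genes brought to one 1517 were higher and 593 lower. At 1.5-fold 1950 were higher and 1938 lower, and at 4-fold 13 and 272. Genes with an isoform share that differed by 50 points numbered 217 with a floor of 5 FPKM and 58 with one of 20 FPKM, in place of 131, over fewer or more genes. Of genes 4-fold higher 10 had a promoter entry, of which 0% held the full cyclic AMP element, 5 TGACG, 2 TATAAA, 1 the AP-1 letters and 0 the NR5A, EGR or progesterone elements. Of 204 promoters of genes 4-fold lower 2 held the EGR site and 0 the progesterone element. The other counts, under no floor, a floor of 5 FPKM, median-of-ratios scaling, the main isoform, noncoding genes included, intervals apart and, chosen after seeing the data, removal of the length trend, were within 1.5 times. Dropping the floor could not alter the counts, since with a pseudocount of 1 FPKM a gene below 1 FPKM at both times cannot reach 2-fold. The floor of 5 FPKM and the demand for intervals apart could only remove calls, and including noncoding genes could only add them. No gene was called in the opposite direction under any of these settings, of which only the main isoform could have turned a call around. Of 47 lists and families with more lower than higher members, 10 had more higher than lower ones with the common protein-coding sum and 12 with that of all genes, and 5 and 8 had equal numbers. With a pseudocount of 5 FPKM 9 neuropeptide genes and 5 cytokine genes were lower. Of 174 named genes, the log2 fold of 33 moved by more than 0.5 with a pseudocount of 0.1 FPKM, of 52 with one of 5 FPKM and of 5 with the main isoform. Low genes are limited by depth, since 1 fragment on 2 kb is worth about 0.0431 FPKM at 12 h, and the spread between mice is not measured.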

Other observations

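Families not described above are given here against the background of 4.19% higher and 7.38% lower. Of 166 measured transmembrane (Tmem) genes 14 (8.43%) were higher and 4 (2.41%) lower, with Tmem218, a ciliary protein, at 20.9, 3.73 and 14.96 FPKM at 0, 4 and 12 h (log2 fold 1.75). Of 332 zinc finger (Zfp) genes 6 were higher and 14 lower, which turns to 17 and 11, and to 27 and 10, with the common sums, with Zfp703 at 8.79, 72.0 and 9.41 FPKM (log2 fold -2.81). Of 45 genes of ribosome biogenesis (median -0.18, and 0.09 and 0.19 with the common sums) 1 was lower, the nucleolar methyltransferase Fbl, at 7.62, 10.2 and 3.60 FPKM (log2 fold -1.28), or -0.94 with the common sum of all genes, and 1 higher, Mycn, at 20.9, 8.86 and 21.3 FPKM (log2 fold 1.18). Of 5 measured histone genes 1 was higher and 1 lower (median -0.40). The linker histone gene H1f0 was at 86.5, 34.4 and 77.3 FPKM (log2 fold 1.14). Another linker histone gene, H1f2, was at 5.47, 17.0 and 5.27 FPKM (log2 fold -1.52).

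Noncoding transcripts, which the protein-coding comparison leaves out, were looked at separately, and those named were chosen after their values were seen. Of 434 lncRNA genes with at least 1 FPKM, 53 were higher and 44 lower (median 0.17). Higher ones thus outnumbered lower ones, whereas of protein-coding genes 4.19% were higher and 7.38% lower. The lncRNAs named here are mostly lower ones and do not show that balance. Meg3, an RNA of the imprinted Dlk1 to Dio3 region, had 132 FPKM at 0 h, 282 at 4 h and 81.3 at 12 h (log2 fold -1.78). Its neighbour Rian had 54.7 FPKM at 0 h, 107 at 4 h and 35.9 at 12 h (log2 fold -1.54). Mirg, of the same region, had 15.3 FPKM at 0 h, 38.1 at 4 h and 8.94 at 12 h (log2 fold -1.98). The microRNA host gene Mir22hg had 21.5 FPKM at 0 h, 83.2 at 4 h and 25.3 at 12 h (log2 fold -1.68). Another, Mir17hg, had 13.9 FPKM at 0 h, 51.8 at 4 h and 16.4 at 12 h (log2 fold -1.60). Foxl2os, which lies beside Foxl2, had 147 FPKM at 0 h, 45.4 at 4 h and 102 at 12 h (log2 fold 1.15), and without strand its reads cannot be told apart from those of an overlapping partner. Of 89 microRNA genes 38 were higher and 39 lower, and of 56 snoRNA genes 15 and 24. The libraries were made with a kit for messenger RNA, per the labels, and the part of that in the short RNA values was not tested.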
